A study of Homo sapiens with 12 samples.

Results

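RNA of 4 matrix metalloproteinases, MMP1, MMP2, MMP3 and MMP14, and of 3 tissue inhibitors of metalloproteinases, TIMP1, TIMP2 and TIMP3, was measured by RNASeq in WI-38 cells, a line of normal human lung fibroblasts. The 7 genes were taken by name, with earlier results of these data known. All 7 were among the 25702 genes of the count table and among the 9490 genes that had at least 10 cpm (counts scaled by library size and composition) in at least 6 of the 12 libraries. Confluent cells were left untreated or were given TGF-β at 2 ng/mL, and RNA was taken on day 1 (conditions D1 and D1+ TGF-β) or on day 20 (conditions D20 and D20+ TGF-β). Each condition has 3 flasks. All flasks hold the same line, no genetic change is stated, and the untreated flasks of day 1 had fresh medium only. For day 20, cells of 1 treated flask and of 1 untreated flask were reseeded on day 1, so that the 3 flasks of each late condition share a source flask and their spread is that between sister cultures. Their medium, with or without TGF-β, was renewed every 2 days, and seeding was set so that they were nearly confluent on day 20. By the labels, day 20 flasks were at a later passage than day 1 flasks. Comparisons between the days thus cannot tell time from passage. The comparisons ask what TGF-β changed early (D1+ TGF-β vs D1) and late (D20+ TGF-β vs D20), what differed between long and short treatment (D20+ TGF-β vs D1+ TGF-β), as well as what changed over time in culture without it (D20 vs D1).

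Matrix metalloproteinases are zinc-dependent proteases that cut collagens and other matrix proteins. Most are secreted as inactive pro-forms that other proteases activate, and TIMPs bind the active site and block it. Lung fibroblasts are a main source of these enzymes and inhibitors, and the balance of both is known to take part in matrix turnover when tissue scars. MMP1 is the collagenase of fibroblasts, MMP2 is a gelatinase, MMP3 (stromelysin) cuts proteoglycans and activates other pro-forms, and MMP14 sits in the cell membrane, where with TIMP2 as an adaptor it activates MMP2. TIMP1 and TIMP2 are soluble, whereas TIMP3 binds to the matrix and also inhibits several ADAM sheddases. RNA levels say nothing of activation or of binding by inhibitors.

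The 250 bases before the transcription start are shown for MMP14, TIMP1 and TIMP3, the members with an entry in the RefSeq promoter table (3 of 7 matched), since all 3 rose with TGF-β in at least 1 comparison given below. MMP1, MMP2, MMP3 and TIMP2 had no entry. Sequences run 5′ to 3′ on the gene's plus strand in GRCh38.p14, and capitals mark matches on either strand to the GC box GGGCGG (or CCGCCC) and to the SMAD box CAGAC (or GTCTG). The window of MMP14 is chr14:22836335-22836584, that of TIMP3 is chr22:32801455-32801704 and that of TIMP1 is chrX:47582186-47582435.
MMP14: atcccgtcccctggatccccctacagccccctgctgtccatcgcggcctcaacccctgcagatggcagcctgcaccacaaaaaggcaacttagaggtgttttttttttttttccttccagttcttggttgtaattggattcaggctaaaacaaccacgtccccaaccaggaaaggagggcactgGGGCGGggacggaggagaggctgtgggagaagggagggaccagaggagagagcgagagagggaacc
TIMP3: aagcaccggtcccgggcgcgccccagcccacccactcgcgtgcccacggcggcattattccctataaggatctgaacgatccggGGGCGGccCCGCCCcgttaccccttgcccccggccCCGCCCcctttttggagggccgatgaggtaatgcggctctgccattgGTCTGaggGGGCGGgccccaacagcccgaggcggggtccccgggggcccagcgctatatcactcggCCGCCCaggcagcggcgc
TIMP1: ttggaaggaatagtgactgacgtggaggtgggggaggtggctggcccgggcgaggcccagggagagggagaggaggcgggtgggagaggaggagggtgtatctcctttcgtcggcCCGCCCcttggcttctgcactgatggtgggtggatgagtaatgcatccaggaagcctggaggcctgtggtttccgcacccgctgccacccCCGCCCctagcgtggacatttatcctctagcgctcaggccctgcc
The MMP14 window held 1 GC box, starting 66 bases before the start site, and had 56.8% G and C. In the TIMP3 window there were 5 GC boxes and 1 SMAD box, the latter 84 bases before the start site on the minus strand, and 72.4% G and C. The TIMP1 window held 2 GC boxes and had 64.8% G and C. The median over all 35116 promoters of the table was 58.0% G and C, and 42.6% of these promoters held a GC box and 38.0% a SMAD box. Neither TGANTCA, the AP-1 site found in 6.57% of all promoters, nor TATAAA, found in 10.7%, had a match in the 3 windows, and no matches overlapped.

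Library totals lay between 8674488 and 18286197 counts. Of the fibroblast markers 9 of 9 passed the filter, with a summed level of 14100 to 23950 cpm over the flasks. Of the epithelial markers 0 of 5 and of the leukocyte markers 0 of 4 passed the filter, with summed levels of at most 1.54 and 6.37 cpm in any flask, and KRT5, KRT14, CD3E and MS4A1 were at 0 in all libraries. Of 4 endothelial markers TEK passed, CDH5 was at 0 in all libraries, and the summed level was 46.1 to 80.1 cpm at D1, 34.8 to 40.5 at D1+ TGF-β, 223 to 250.4 at D20 and 77.6 to 151.5 at D20+ TGF-β. Its part in the results was not tested. ACTA2, which encodes the αSMA of myofibroblasts, was 183.1 ± 52.9 cpm at D1 and 768 ± 79.4 cpm at D1+ TGF-β (SD, n = 3), but 287 ± 10.1 cpm at D20 and 315 ± 37.4 cpm at D20+ TGF-β, with a log2 fold change of 0.13 between the late conditions (standard error 0.17, edgeR adjusted p = 0.554). Of the 4 myofibroblast markers, 3 rose at D1+ TGF-β, and 0 rose and 2 (CNN1 and MYL9) fell in D20+ TGF-β vs D20. LTBP2, a matrix protein that binds fibrillin and is induced by TGF-β, was 305 ± 10.04 cpm at D20 and 1379 ± 119 cpm at D20+ TGF-β.

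A pair of libraries stood apart from the other flasks of their condition. Over the genes tested, D1 flask 2 had a root mean square difference of 0.316 on the log2 scale from its sister flasks and D20+ TGF-β flask 3 one of 0.286, where the other 10 libraries lay between 0.110 and 0.239. In these libraries 1.16 and 1.22% of genes differed by more than 1 log2 unit from the sister flasks, against at most 0.179% elsewhere. Values of members without them are given below where they change a direction or a call.

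In D1+ TGF-β vs D1, 3 of the 7 members passed an adjusted p of 0.01 by edgeR's quasi-likelihood test, all of them higher (MMP2, MMP14 and TIMP3), against 13.4% of all genes tested called in either direction (6.89% higher and 6.5% lower). In D20+ TGF-β vs D20, 4 members rose (MMP1, MMP2, MMP14 and TIMP1) and 0 fell, with a background of 27.5% (12.8% higher and 14.7% lower). Between short and long treatment, 3 rose (MMP1, MMP2 and MMP14) and TIMP3 fell, with a background of 34.8% (17.2% higher and 17.7% lower). In D20 vs D1, TIMP3 rose and MMP1 and TIMP1 fell, with a background of 36.4% (18.9% higher and 17.6% lower). The flasks of the conditions did not overlap for 36.4, 58.3, 63.2 and 55.6% of all genes in these comparisons, so that such a gap is common. The median log2 fold change of the 7 members was 0.14, 0.58, 0.40 and 0.02 in these comparisons, beside medians over all genes tested of −0.02, 0.01, 0.01 and 0.01. The comparisons share groups of flasks, so their counts are not independent. MMP3 and TIMP2 were called in none of the 4.

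**Figure D1:**
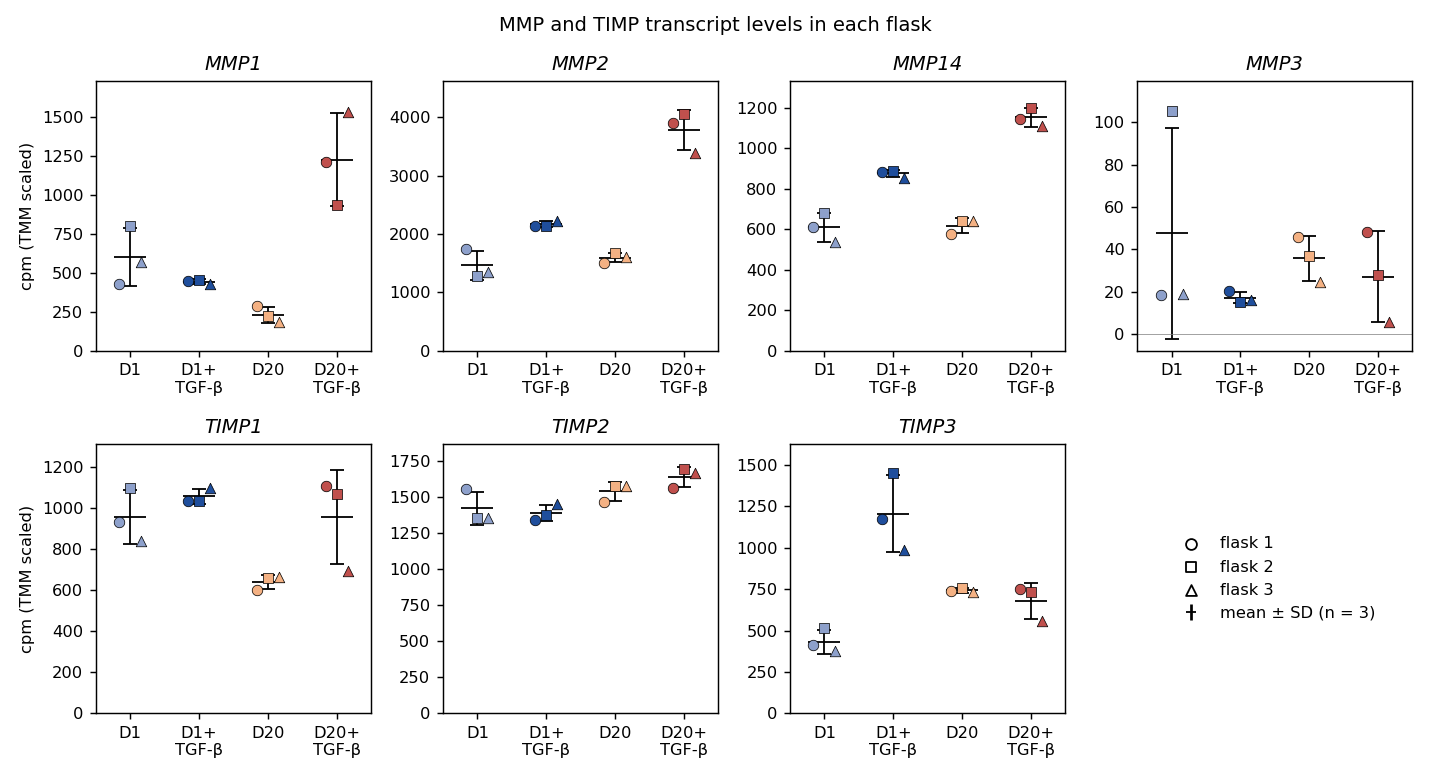
Level of each member in each flask (cpm scaled by TMM factors, linear axes, circles, squares and triangles for flasks 1 to 3), with the mean and SD of the 3 flasks of a condition as bars. MMP1, MMP2 and MMP14 are highest at D20+ TGF-β, where all 3 flasks lie above those of the other conditions, TIMP3 is highest at D1+ TGF-β, and in MMP3 the D1 mean of 47.5 cpm rests on flask 2 at 105 cpm.

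MMP1 (Entrez 4312, GRCh37 chr11:102660132-102668891, minus strand), the interstitial collagenase, had the largest change of the 7 members in D20+ TGF-β vs D20, at 5.34-fold. Its levels were 431, 801 and 573 cpm in the D1 flasks 1, 2 and 3, and 447, 457 and 429 cpm at D1+ TGF-β. At D20 they had dropped to 286, 223 and 182.5 cpm, whereas the D20+ TGF-β flasks had 1213, 935 and 1536 cpm. Every late treated flask was above all the other 9, every late untreated flask was below them, and the early treated and untreated flasks overlapped. Long treatment gave a log2 fold change of 2.42 (standard error 0.23, adjusted p = 2.76e-06) over D20 and of 1.47 (standard error 0.22, adjusted p = 1.26e-04) over D1+ TGF-β. From D1 to D20 without TGF-β, MMP1 fell by 1.39 on the log2 scale (standard error 0.22, adjusted p = 1.60e-04). The late rise with TGF-β is thus measured from a level that had fallen in the untreated cells, and the mean at D20+ TGF-β, 1228 ± 301 cpm (SD, n = 3), was also above the 602 ± 187 cpm of D1. In D1+ TGF-β vs D1 the log2 fold change was −0.44 (95% interval −0.90 to 0.03, adjusted p = 0.160), and −0.18 without D1 flask 2. The 3 changes that passed the test were called in all 22 alternative settings. In bulk RNA, a higher level in each cell and a larger share of cells with the RNA cannot be told apart, here and for all members.

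MMP2 (Entrez 4313, chr16:55423612-55540603, plus strand), the gelatinase that MMP14 activates, rose with TGF-β at both times. The D1 flasks had 1749, 1288 and 1355 cpm, and the early treated flasks 2138, 2144 and 2223 cpm. At D20 the levels were 1512, 1673 and 1603 cpm and at D20+ TGF-β 3902, 4061 and 3394 cpm. Treated flasks were above all untreated flasks, and late treated flasks were above early treated flasks, while D1 and D20 overlapped. The log2 fold change was 0.57 (standard error 0.11, adjusted p = 0.00212) at day 1 and 1.25 (standard error 0.11, adjusted p = 1.70e-06) at day 20. Between the treated conditions it was 0.80 (standard error 0.11, adjusted p = 6.35e-05), and between the untreated conditions 0.12 (95% interval −0.11 to 0.36, adjusted p = 0.360).

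MMP14 (Entrez 4323, chr14:23305769-23318250, plus strand), the membrane-type protease, had the same order of mean levels over the conditions as MMP2. It had 613, 680 and 535 cpm at D1 and 885, 888 and 855 cpm at D1+ TGF-β. It had 575, 639 and 639 cpm at D20 and 1146, 1200 and 1111 cpm at D20+ TGF-β. As in MMP2, D1 and D20 overlapped and the other neighbours in the order did not. TGF-β raised MMP14 by a log2 fold change of 0.52 (standard error 0.087, adjusted p = 7.24e-04) at day 1 and of 0.90 (standard error 0.087, adjusted p = 3.85e-06) at day 20. The late treated flasks exceeded the early treated flasks by 0.40 (standard error 0.087, adjusted p = 0.00204), a call that was lost without D1+ TGF-β flask 1, 2 or 3 (adjusted p = 0.0114, 0.0116 and 0.0139). Between D20 and D1 the log2 fold change was 0.02 (95% interval −0.17 to 0.21, adjusted p = 0.869). The rise of both MMP2 and MMP14 with TGF-β at day 1 and at day 20 was called in all 22 alternatives.

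MMP3 (Entrez 4314, chr11:102706532-102714340, minus strand), stromelysin 1, was the lowest of the 7 and the most variable between flasks. Flasks 1 and 3 of D1 had 18.5 and 19.1 cpm, but flask 2 had 105 cpm. The D1+ TGF-β flasks had 20.5, 15.3 and 16.4 cpm, the D20 flasks 46.0, 36.7 and 24.7 cpm and the D20+ TGF-β flasks 48.1, 28.1 and 5.64 cpm. The extreme values were thus in the libraries that stood apart, D1 flask 2 being the highest of all 12 and D20+ TGF-β flask 3 the lowest, and all neighbouring conditions overlapped. The difference was present in every lane: the 4 lanes of D1 flask 2 held 389, 391, 429 and 373 counts and those of D1 flask 1 held 55, 47, 47 and 66. The SD of MMP3 between flasks was 1.10 on the log2 scale and that between lanes 0.188, where the other members had 0.078 to 0.330 between flasks and 0.022 to 0.038 between lanes. The log2 fold change of −1.49 in D1+ TGF-β vs D1 (95% interval −2.96 to −0.03, adjusted p = 0.129) became −0.14 without D1 flask 2. In D20 vs D1 it was −0.45 (95% interval −1.80 to 0.91, adjusted p = 0.581) with all flasks and 0.91 without D1 flask 2, and in D20+ TGF-β vs D20 it was −0.34 (95% interval −1.73 to 1.06, adjusted p = 0.708) with all flasks and 0.15 without D20+ TGF-β flask 3. No direction of MMP3 can be given from these flasks.

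TIMP1 (Entrez 7076, chrX:47441807-47446188, plus strand), the soluble inhibitor that binds most MMPs, was lower at D20 than in the other conditions. Its levels were 933, 1097 and 839 cpm at D1 and 1037, 1037 and 1096 cpm at D1+ TGF-β. They were 600.3, 658 and 663 cpm at D20 and 1108, 1071 and 692 cpm at D20+ TGF-β. All D20 flasks were below all others, with D20+ TGF-β flask 3 just above them and the other late treated flasks among the highest flasks of day 1. TIMP1 fell from D1 to D20 by 0.58 on the log2 scale (standard error 0.15, adjusted p = 0.00507), and at day 20 it was higher with TGF-β by 0.58 (standard error 0.15, adjusted p = 0.00637). Both calls depended on single flasks. The fall was lost without D1 flask 1 or 2 or any D20 flask (adjusted p from 0.0119 to 0.0198), and the rise without any D20 flask or without D20+ TGF-β flask 1 or 2 (0.0151 to 0.0272), while without D20+ TGF-β flask 3 the rise was 0.79 (adjusted p = 3.89e-05). In D1+ TGF-β vs D1 the log2 fold change was 0.14 (95% interval −0.17 to 0.46, adjusted p = 0.513), and between short and long treatment it was −0.14 (95% interval −0.46 to 0.17, adjusted p = 0.438), or 0.03 without D20+ TGF-β flask 3.

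TIMP2 (Entrez 7077, chr17:76849059-76921469, minus strand), the inhibitor that also serves MMP14 in the activation of MMP2, changed least. It had 1556, 1352 and 1358 cpm in the D1 flasks and 1344, 1374 and 1449 cpm in the D1+ TGF-β flasks, and late flasks had 1466, 1579 and 1576 cpm without and 1560, 1694 and 1665 cpm with TGF-β. Neighbouring conditions overlapped throughout, although all late treated flasks were above the early treated flasks. The log2 fold change with TGF-β was −0.03 (95% interval −0.20 to 0.13, adjusted p = 0.788) at day 1 and 0.09 (95% interval −0.08 to 0.26, adjusted p = 0.379) at day 20, so that at both times a change of more than 0.26 lay outside the interval. Between short and long treatment it was 0.24 (standard error 0.078, adjusted p = 0.0204), and it was called in 4 of 22 alternatives, by DESeq2 (adjusted p = 0.00393), without D1 flask 1 (0.00784), without composition factor (0.00736) and with the 48 lanes as samples (2.63e-10), and in the other alternatives the adjusted p reached up to 0.104.

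TIMP3 (Entrez 7078, chr22:33197691-33259028, plus strand), the inhibitor bound to the matrix, rose early with TGF-β and not late. The D1 flasks had 410.2, 515 and 375 cpm and the D1+ TGF-β flasks 1176, 1453 and 989 cpm. The D20 flasks had 741, 758 and 731 cpm and the D20+ TGF-β flasks 749, 736 and 556 cpm. Early treated flasks were above all others and early untreated flasks below, whereas the late treated and untreated flasks overlapped. The log2 fold change was 1.48 (standard error 0.15, adjusted p = 1.62e-05) at day 1, or 2.78-fold, and −0.13 (95% interval −0.45 to 0.19, adjusted p = 0.526) at day 20, where it was 0.02 without D20+ TGF-β flask 3. Under TGF-β, TIMP3 fell from day 1 to day 20 by 0.83 on the log2 scale (standard error 0.15, adjusted p = 5.37e-04). Without TGF-β it rose over the same time by 0.78 (standard error 0.15, adjusted p = 7.66e-04). These 3 changes were called in all 22 alternatives.

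**Figure D2:**
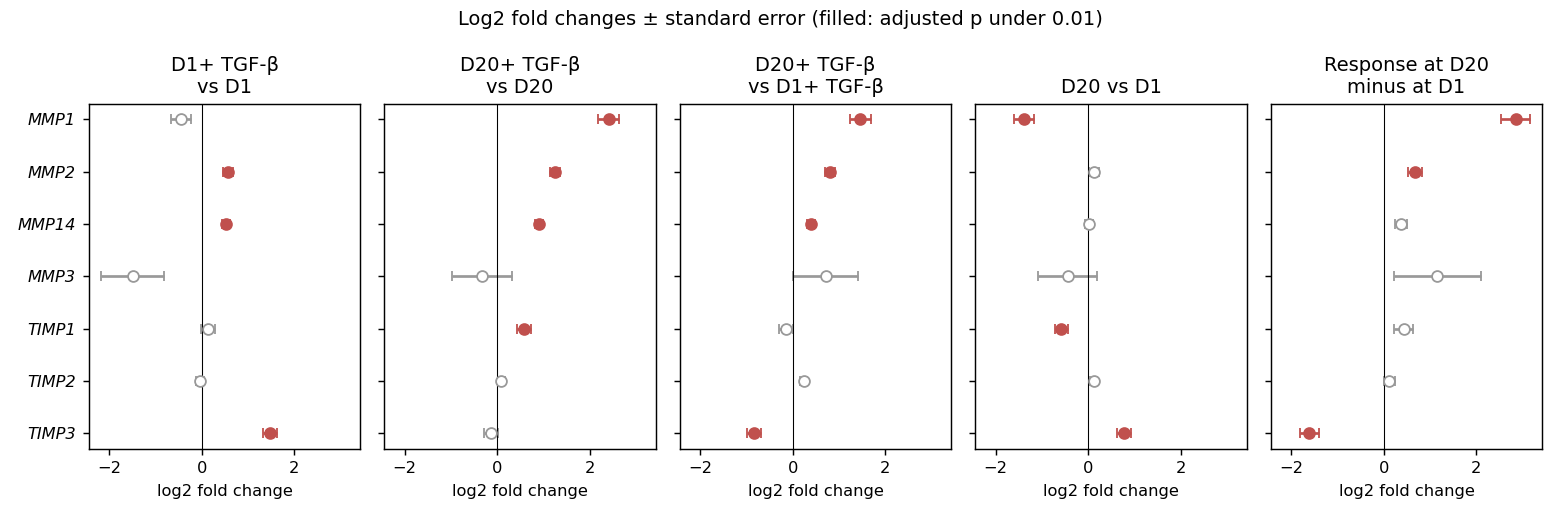
Log2 fold change (x axis) with its standard error for the 7 members in the 4 comparisons and, at the right, for the response at D20 minus the response at D1, filled where the adjusted p was under 0.01. MMP1 lies at 2.42 in D20+ TGF-β vs D20 and at −1.39 in D20 vs D1, and TIMP3 at 1.48 in D1+ TGF-β vs D1 and at −0.13 in D20+ TGF-β vs D20.

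Whether the response to TGF-β differed between the times was tested as the response at D20 minus that at D1, for which 10.4% of all genes tested were called (4.51% higher and 5.87% lower). Of the members 3 were called, MMP1 and MMP2 with a larger and TIMP3 with a smaller late response. The difference was 2.85 on the log2 scale for MMP1 (standard error 0.31, adjusted p = 5.37e-05) and −1.60 for TIMP3 (standard error 0.21, adjusted p = 2.19e-04), and both were called in all 21 alternatives run. For MMP2 it was 0.68 (standard error 0.15, adjusted p = 0.00731), a call that was lost without any 1 of the D1+ TGF-β or D20 flasks or without D20+ TGF-β flask 1 or 2 (adjusted p from 0.0136 to 0.0199). MMP14 had a difference of 0.38 (95% interval 0.11 to 0.64, adjusted p = 0.0433), which was called without D1 flask 3 (0.47, adjusted p = 0.00882). TIMP1 had 0.44 (95% interval −0.01 to 0.88, adjusted p = 0.154), which became 0.63 (adjusted p = 0.00466) without D20+ TGF-β flask 3. TIMP2 had 0.12 (95% interval −0.11 to 0.36, adjusted p = 0.451). MMP3 had 1.16 (95% interval −0.87 to 3.18, adjusted p = 0.409), and −0.18 without D1 flask 2. By the main test, then, the late response was the larger for the collagenase and the gelatinase, and the early response for the matrix-bound inhibitor.

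**Figure D3:**
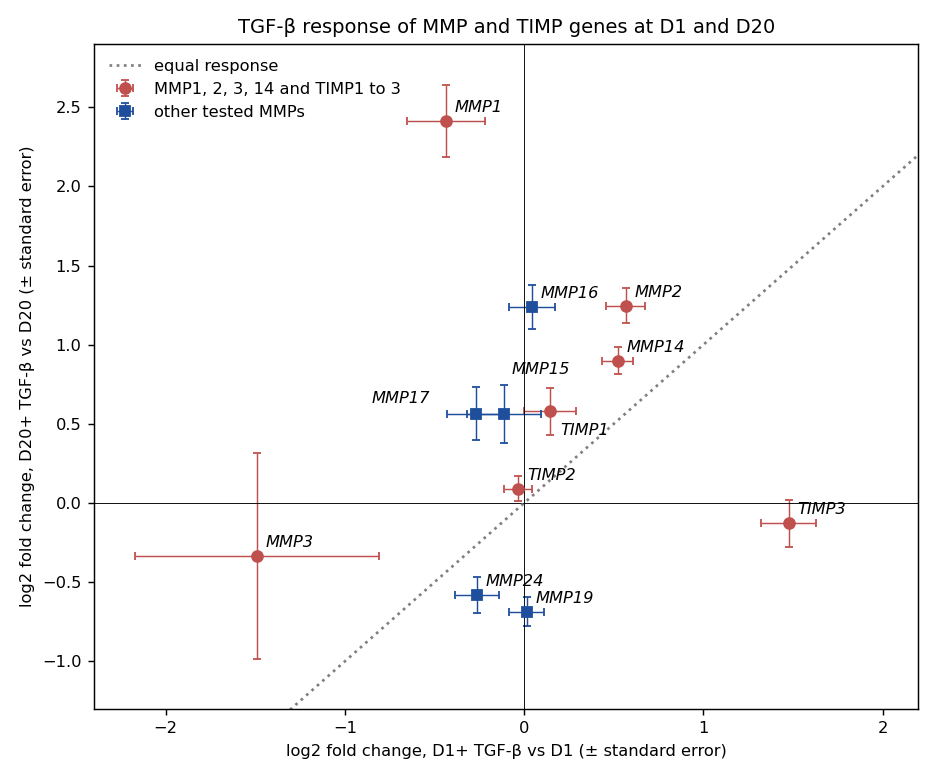
Log2 fold change with TGF-β at day 1 (x axis) and at day 20 (y axis) with standard errors for the 7 members (red circles) and the 5 other MMPs that passed the filter (blue squares), with a dotted line of equal response. MMP1 lies far above the line, with −0.44 at day 1 and 2.42 at day 20, TIMP3 below it, and TIMP2 close to it near 0.

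To compare genes with each other, counts were divided by the length of all annotated exons of the gene and scaled to the same total in each library (TPM). On this scale MMP2 held the largest share of the summed 4 MMPs in 11 of 12 flasks, between 46.2 and 61.0%, the exception being D1 flask 2 with 35.6% MMP2 and 38.0% MMP1, and TIMP1 the largest share of the 3 TIMPs in all flasks, between 51.1 and 69.7%. The summed MMP level was 2465 to 3295 TPM at D1, 3401 to 3433 at D1+ TGF-β, 2256 to 2382 at D20 and 6257 to 6654 at D20+ TGF-β. The summed TIMP level was 3483 to 4659 TPM at D1, 4931 to 5197 at D1+ TGF-β, 3366 to 3517 at D20 and 3785 to 4963 at D20+ TGF-β. Late treated flasks thus had the highest summed MMP level, while their summed TIMP level lay within the range of the other conditions.

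The ratio of summed MMPs to summed TIMPs was 0.682, 0.707 and 0.708 in the D1 flasks, 0.690, 0.656 and 0.682 at D1+ TGF-β, and 0.708, 0.680 and 0.641 at D20. At D20+ TGF-β it was 1.31, 1.26 and 1.76. The 9 flasks of the other conditions thus shared a narrow range, and each late treated flask lay above it. No test was run on these sums, since the members were chosen with results of these data known. At D1+ TGF-β a higher MMP2 and MMP14 level came with a TIMP3 share of 17.8 to 25.2% of the TIMPs, against 9.06 to 10.3% at D1, and the ratio stayed in the same range. Other members of the sums differed too. Mean levels at D1 and D1+ TGF-β were 906 ± 313 and 674 ± 19.5 TPM for MMP1 (SD, n = 3). They were 108 ± 117 and 38.9 ± 6.09 TPM for MMP3, and 2723 ± 483 and 3036 ± 111 TPM for TIMP1. The part of each gene in the ratio was not tested. TIMP3 made up 18.2 to 19.8% at D20 and 13.6 to 13.9% at D20+ TGF-β. The ratio of MMP1 to TIMP1, also per length, was 0.578, 0.461 and 1.17 at D20+ TGF-β and between 0.145 and 0.385 in the other flasks, flask 3 of D20+ TGF-β having both the highest MMP1 and the lowest TIMP1 of its condition.

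**Figure D4:**
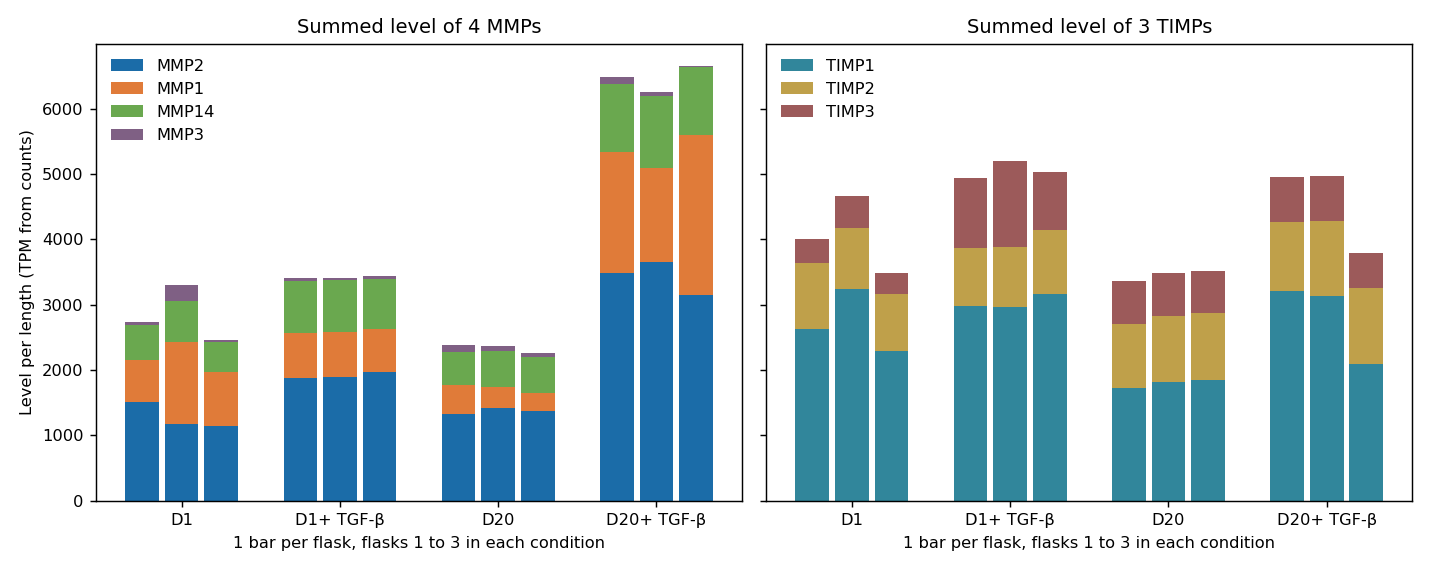
Summed levels per length (TPM, y axis) of the 4 MMPs (left) and the 3 TIMPs (right), 1 bar per flask and 3 per condition, stacked by gene. The MMP bars reach 6257 to 6654 TPM at D20+ TGF-β and at most 3433 TPM elsewhere, and the TIMP bars stay between 3366 and 5197 TPM.

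Other genes lie over or beside several members, and the use of strand in counting is not stated. WTAPP1, a pseudogene on the strand opposite MMP1 and MMP3, had 31 counts over all 12 libraries. SYN1, opposite TIMP1, had 182 counts and at most 2.46 cpm, and SYN3, opposite TIMP3, had 7 counts. MMP2 is overlapped by the antisense MMP2-AS1 and TIMP2 by CEP295NL on its own strand, and neither was matched to a row of counts. MMP14 overlapped no other annotated gene.

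MMP1 and MMP3 lie in a cluster of MMP genes on chromosome 11, with 14 protein-coding genes within 500 kb, both counted. Of the 9 MMP genes among them, MMP1 and MMP3 were tested. MMP10, a second stromelysin, had 225 counts in all, of which 107 were at D1, and reached 6.24 cpm in D1 flask 2 and at most 1.72 cpm in any other flask. The high MMP3 flask was thus also the high MMP10 flask. MMP8 had 28 counts, 22 of them at D20+ TGF-β, MMP12 had 22, and MMP7, MMP13, MMP20 and MMP27 had at most 3 each. Among the non-MMP neighbours, BIRC2, TMEM123, DCUN1D5 and DYNC2H1 were tested, and in D20+ TGF-β vs D20 only DYNC2H1, which encodes a dynein of cilia, was called (log2 fold change 0.46, standard error 0.084, adjusted p = 6.51e-04). The other 4 genes tested had log2 fold changes between −0.34 and 0.18 there.

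**Figure D5:**
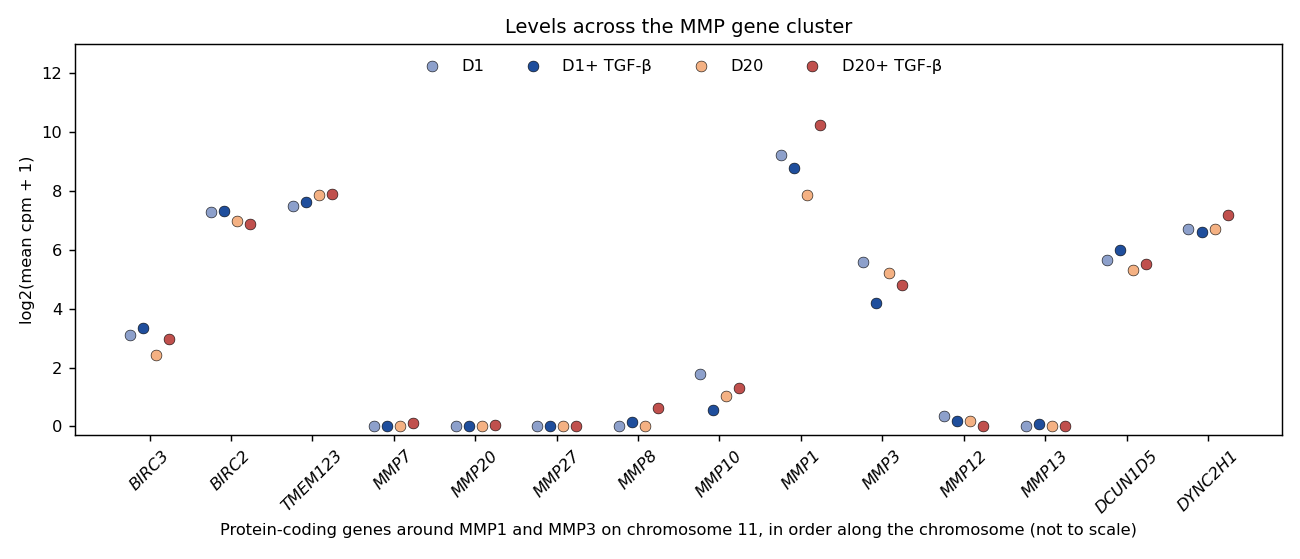
Mean level of the 14 protein-coding genes around MMP1 and MMP3 in their order on the chromosome (not to scale), as log2 of the mean cpm of 3 flasks plus 1, with 1 point per condition. MMP1 spans 230 to 1228 cpm between D20 and D20+ TGF-β, and the 6 genes MMP7, MMP8, MMP12, MMP13, MMP20 and MMP27 lie near 0.

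Of 20 other genes of the family (19 MMPs and TIMP4), 5 passed the filter, 12 stayed under 1 cpm in every library, and MMP9, a gelatinase of leukocytes, had 0 counts, which allows up to 0.346 cpm in the smallest library (3 counts, counting error only). MMP16, a membrane-type MMP, had 23.5, 32.9 and 28.5 cpm at D1, 28.4, 33.1 and 25.6 at D1+ TGF-β, 14.7, 11.7 and 12.4 at D20 and 28.5, 30.4 and 32.3 at D20+ TGF-β. Its D20 flasks were thus below all others. MMP16 fell from D1 to D20 by 1.14 on the log2 scale (standard error 0.14, adjusted p = 1.53e-05) and at day 20 was higher with TGF-β by 1.24 (standard error 0.14, adjusted p = 1.19e-05), and its response differed between the times by 1.20 (standard error 0.19, adjusted p = 7.79e-04). MMP15, another membrane-type MMP, was 9.71 ± 3.46, 8.98 ± 1.57, 12.9 ± 1.05 and 19.1 ± 0.522 cpm in the early untreated, early treated, late untreated and late treated flasks (SD, n = 3), and rose between short and long treatment by 1.11 (standard error 0.19, adjusted p = 4.31e-04). MMP19 and MMP24 went the other way at day 20, with log2 fold changes of −0.69 (adjusted p = 6.06e-05) and −0.58 (adjusted p = 0.00121) with TGF-β. MMP11, which did not pass the filter, had up to 16.9 cpm. TIMP4 had 372 counts and at most 4.296 cpm.

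For each member, the 3 genes with the most similar pattern over the 12 libraries were those with the smallest root mean square difference of centred log2 cpm. For MMP1, whose own spread was 0.904, these were CLGN (0.367), PTPRN (0.392) and FAM129A (0.418). CLGN, a chaperone of the endoplasmic reticulum, had mean levels of 21.0, 24.7, 10.8 and 44.1 cpm in the early untreated, early treated, late untreated and late treated flasks, the same low at D20 and high at D20+ TGF-β as MMP1. MMP2 (spread 0.551) was nearest to TSKU (0.154), MRC2 (0.178) and HERPUD1 (0.186), and MMP14 (spread 0.393) to HYOU1 (0.0853), TRPS1 (0.0853) and MRC2 (0.101). MRC2, the receptor by which fibroblasts take up cut collagen, was thus near both, with 275, 408, 305 and 564 cpm. HYOU1 and HERPUD1 encode proteins of the endoplasmic reticulum. TIMP3 (spread 0.552) was nearest to CALD1 (0.203), an actin-binding protein of contractile cells, to SPARC (0.219), a matricellular protein, and to PLOD2 (0.231), a collagen lysyl hydroxylase. All 3 were highest at D1+ TGF-β and lowest at D1, with 756, 1800, 1213 and 1063 cpm for CALD1. For TIMP1 (spread 0.327) the nearest were DDX10 (0.130), CDR2 (0.133) and SYNJ2 (0.138), and for TIMP2 (spread 0.115) KIF3C (0.0472), MAF1 (0.0493) and FAM89B (0.0560).

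MMP3 (spread 1.00) was nearest to ID1 (0.426), ID3 (0.493) and FAM65B (0.567). ID1 and ID3, inhibitors of helix-loop-helix factors and targets of BMP signalling, had 62.1 and 87.5 cpm in D1 flask 2 against at most 16.3 and 12.6 cpm in the other D1 flasks, and 8.70 and 11.3 cpm in D20+ TGF-β flask 3 against at least 21.2 and 24.2 cpm in its sister flasks. Both were highest of all 12 libraries in D1 flask 2, as MMP3 was.

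Of 21 genes that regulate the activation, inhibition or clearance of MMPs, 19 were tested, and 3 rose and 6 fell in D20+ TGF-β vs D20, where 12.8% of all genes tested were called higher and 14.7% lower. RECK, a membrane-anchored inhibitor of MMPs, had 75.1, 125 and 71.1 cpm at D1, 76.6, 77.6 and 81.4 at D1+ TGF-β, 144.5, 171 and 178 at D20 and 74.0, 74.1 and 63.4 at D20+ TGF-β. Late untreated flasks were thus above all others. RECK fell with TGF-β at day 20 by 1.22 on the log2 scale (standard error 0.17, adjusted p = 7.75e-05), and its response differed between the times by −1.02 (standard error 0.24, adjusted p = 0.00861). A2M, which encodes a broad protease inhibitor that traps MMPs, had 188 ± 76.0, 111 ± 13.3, 488 ± 34.1 and 19.6 ± 8.41 cpm in the early untreated, early treated, late untreated and late treated flasks (SD, n = 3), and fell by 4.63 (standard error 0.33, adjusted p = 1.97e-07) in D20+ TGF-β vs D20. THBS2, a matricellular protein that helps to clear MMP2, rose by 2.64 (standard error 0.10, adjusted p = 1.28e-09) in the same comparison, from 23.6 ± 1.87 to 148 ± 15.5 cpm. SERPINE2, an inhibitor of serine proteases, rose with TGF-β at day 1 by 2.36 (standard error 0.19, adjusted p = 2.27e-06) and at day 20 by 1.84 (standard error 0.19, adjusted p = 6.86e-06). PLAUR, the urokinase receptor, fell from D1 to D20 by 1.17 (standard error 0.098, adjusted p = 6.94e-07). With TGF-β it rose by 0.64 at day 1 (standard error 0.093, adjusted p = 2.73e-04) and by 0.72 at day 20 (standard error 0.099, adjusted p = 7.44e-05). The median log2 fold change of the list in D20+ TGF-β vs D20 was −0.26, beside 0.01 over all genes tested.

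Of 14 other genes of matrix and collagen turnover 11 were tested, and 4 rose and 3 fell in D20+ TGF-β vs D20, against 12.8% higher and 14.7% lower of all genes tested, with a median of −0.03. FAP, a membrane-bound protease of activated fibroblasts, had 107, 118 and 110.0 cpm at D1, 266, 254 and 221 at D1+ TGF-β, 118.5, 121 and 119 at D20 and 347, 349 and 327 at D20+ TGF-β. Both treated groups lay above both untreated groups, as in MMP2, with log2 fold changes of 1.15 (standard error 0.077, adjusted p = 3.10e-07) and 1.51 (standard error 0.077, adjusted p = 1.06e-08). CTSK, a lysosomal collagenase, was 192.5 ± 45.5 and 192 ± 8.37 cpm in the untreated and treated flasks of day 1 (adjusted p = 0.997) and rose at day 20 by 1.51 (standard error 0.16, adjusted p = 6.94e-06), from 185 ± 12.1 to 528 ± 98.1 cpm, a difference of responses of 1.52 (standard error 0.22, adjusted p = 4.58e-04). DPP4, a dipeptidyl peptidase of the cell surface, rose between short and long treatment by 1.30 (standard error 0.22, adjusted p = 3.75e-04). It also rose without TGF-β, by 1.11 in D20 vs D1 (standard error 0.22, adjusted p = 9.80e-04). In D20+ TGF-β vs D20 its log2 fold change was −0.25 (standard error 0.22, adjusted p = 0.385).

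ADAM sheddases, which TIMP3 inhibits in part, were tested in 8 of 9 cases, and 0 rose and 4 fell in D20+ TGF-β vs D20 (background 12.8% higher and 14.7% lower), with a median of −0.40. In D20 vs D1, without TGF-β, 5 of the 8 rose and 0 fell (background 18.9% higher and 17.6% lower), with a median of 0.47. The late comparison is thus measured from untreated levels that had risen for several of these genes. ADAM12 had 15.98, 24.9 and 14.9 cpm at D1, 79.1, 85.8 and 67.7 at D1+ TGF-β, 17.8, 17.2 and 18.4 at D20 and 19.2, 18.2 and 12.1 at D20+ TGF-β. Like TIMP3 it was highest in the early treated flasks, with a log2 fold change of 2.05 (standard error 0.18, adjusted p = 4.82e-06) at day 1 and −0.10 (standard error 0.20, adjusted p = 0.717) at day 20. ADAM19 rose at day 1 by 1.93 (standard error 0.27, adjusted p = 1.93e-04), from 80.6 ± 45.9 to 308 ± 19.4 cpm, with D1 flask 2 at 134 cpm and the other D1 flasks at 52.9 and 55.3 cpm.

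Transcription factors and cytokines known to act on MMP genes were tested in 13 of 20 cases, and 3 rose and 2 fell in D20+ TGF-β vs D20 (background 27.5% called, 12.8% higher and 14.7% lower), with a median of −0.01. FOSL1, an AP-1 subunit, was 168 ± 24.5 and 127 ± 3.91 cpm at D1 and D1+ TGF-β and 55.9 ± 5.08 and 67.9 ± 8.76 cpm at D20 and D20+ TGF-β, and fell from D1 to D20 by 1.59 (standard error 0.12, adjusted p = 2.63e-07). ETV4, an ETS factor, had the order of MMP1 at day 20, with 15.4, 20.7 and 14.7 cpm at D1, 21.9, 24.4 and 19.2 at D1+ TGF-β, 8.05, 6.60 and 6.00 at D20 and 19.9, 19.1 and 22.6 at D20+ TGF-β, and rose with TGF-β at day 20 by 1.59 (standard error 0.16, adjusted p = 4.45e-06). ETS2, also an ETS factor, fell at day 1 by 1.14 (standard error 0.23, adjusted p = 0.00290), where D1 flask 2 had 234 cpm and the other D1 flasks 107 and 116 cpm. IL1R1, the receptor of interleukin 1, fell with TGF-β at day 1 by 1.93 (standard error 0.39, adjusted p = 0.00273), D1 flask 2 having 264 cpm against 92.4 and 114 cpm in its sister flasks, and was 386 ± 15.0 cpm at D20 and 144 ± 67.9 cpm at D20+ TGF-β, where flask 3 had 66.5 cpm.

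Among the genes of that list below the filter, 4 cytokines were looked at after their values were seen. IL1B, a known inducer of MMP1 and MMP3, had 17.4, 8.12 and 0.669 cpm in the D20+ TGF-β flasks 1, 2 and 3, and 7.04 cpm in D1 flask 2 and at most 0.681 cpm in the other libraries. IL1A had 17.95, 9.76 and 1.34 cpm, IL6 39.3, 15.7 and 4.11 cpm and CXCL8 198, 71.0 and 3.92 cpm in the D20+ TGF-β flasks, so that all 4 were lowest in flask 3 of that condition. MMP3 had the same order over these flasks, with 48.1, 28.1 and 5.64 cpm, and MMP1 did not, with its highest level, 1536 cpm, in flask 3. Whether the cytokines have a part in the levels of MMP1 or MMP3 was not tested.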

How the data were processed

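RNA of 3 flasks of WI-38 cells in each of 4 conditions (12 libraries, each read on 4 lanes, 48 columns) was analysed. The authors trimmed reads with Trimmomatic, mapped them to hg19 (GRCh37) with Rsubread and deposited the counts of each gene in each lane, neither scaled nor filtered (25702 genes). They also deposited log2 values of scaled counts per gene and lane, made by voom, for 9412 genes left by their filter of 10 cpm in at least 24 columns. The counting program and its use of strand are not given in the sources used here.

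Columns were assigned to flasks by their names, with 0 left over, and lanes were added up within libraries (8674488 to 18286197 counts, lanes 2102914 to 4706033). Genes reaching 10 cpm in 6 or more libraries were tested (9490 of 20434 with a count) with edgeR 4.0.16 in R 4.3.3 (TMM factors, quasi-likelihood fit, 1 mean per condition over all 12 libraries, Benjamini-Hochberg adjustment, called under 0.01). The biological coefficient of variation was 9.35%. All adjusted p are from this edgeR fit unless another tool is named, and 95% intervals use its standard errors with 13.5 degrees of freedom. An exact permutation test of 3 flasks against 3 cannot give a p below 0.1, and none was run. Errors are between flasks and include counting error. Levels per length used the exon union of GENCODE v44 lifted to GRCh37, and the code was tested on simulated counts.

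The members and gene lists were chosen with earlier results of these data known. Named from each list are genes called in any comparison with a log2 fold change of at least 1, at most 6 by smallest p, with genes below the filter where counts show whether a family member was detected, the 3 genes nearest to each member, and the genes within 500 kb of MMP1 and MMP3. The alternatives were DESeq2 1.42.0, limma-voom (limma 3.58.1) on 12 libraries and on the 48 lanes as the study did, limma on the deposited log2 values, RLE factors or no composition factor, filterByExpr or no gene filter, only the 6 libraries compared, replicate numbers as a block, and each library left out. Same-numbered flasks of different conditions had correlations of their deviations from −0.223 to 0.325, so the numbers were not taken as pairs.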

Additional observations from a re-analysis of the deposited data

Results flagged for a closer look

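For 3 members the response to TGF-β at day 20 differed from that at day 1 by the test of the difference itself (edgeR, adjusted p under 0.01). MMP1 had a difference of 2.85 on the log2 scale, with a response of −0.44 at day 1 and 2.42 at day 20. MMP2 had 0.68, from 0.57 to 1.25, and this is the difference that lost its call when certain flasks were left out. TIMP3 had −1.6, from 1.48 to −0.13. All 3 late treated flasks lay above all 3 late untreated flasks for MMP1 and MMP2, and the early treated flasks above the early untreated flasks for MMP2 and TIMP3.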

How the results depend on the processing

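Over 763 values of members and alternatives, 705 kept direction and side of the threshold, 24 lost a call, 13 gained one and 21 turned in direction. With the 48 lanes entered as samples, which counts each flask 4 times, 5 members were called in D20 vs D1 and 6 for the difference of responses. In the main fit 36.4 and 10.4% of all genes tested were called in these comparisons. With the lanes as samples, 5895 of 9412 genes were called in D20 vs D1 and 3703 of 9412 for the difference of responses. MMP1 in D1+ TGF-β vs D1 was called there alone (−0.39, adjusted p = 0.00185, range over the alternatives 0.00185 to 0.510). The summed ratio of MMPs to TIMPs at D1 was 0.668 with the longest transcript as length, against 0.699. Directions turned for values near 0 or for MMP3. MMP14 in D20 vs D1 was −0.052 without composition factor, −0.057 without gene filter, −0.020 with filterByExpr and −0.003 with 6 libraries, and MMP3 was 0.058 on the deposited log2 values. With 1 library left out, the ranges were −0.067 to 0.099 for MMP14 and −0.825 to 0.906 for MMP3 in D20 vs D1, −0.070 to 0.044 for TIMP2 in D1+ TGF-β vs D1, −1.06 to 0.147 for MMP3 and −0.178 to 0.017 for TIMP3 in D20+ TGF-β vs D20, −0.055 to 1.16 for MMP3 and −0.274 to 0.025 for TIMP1 between short and long treatment, and −0.178 to 1.63 for the difference of responses of MMP3. The cause was not tested. TIMP1 in D20+ TGF-β vs D20 also lost its call on the deposited log2 values (adjusted p = 0.0105) and with 6 libraries (0.0175), in a range of 7.02e-10 to 0.0272. Without composition factor the median of all genes moved by 0.125 for the difference of responses.

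Replicate numbers as a replicate block gave 2 members called for the difference of responses, since MMP2 had 0.67 there (adjusted p = 0.0133), and changed no other call of a member. Over all genes tested, 831 of 9490 were called for this difference with the block. Depth limits the family members below the filter, for which no difference was tested.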
